A study of Mus musculus with 9 samples.

Results

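The genes described are the carriers that bring sugars, amino acids and small peptides across the membranes of intestinal stem cells, in cells grown in 3 different gels. Members were taken by symbol from the solute carrier families Slc1, Slc2, Slc5, Slc6, Slc7, Slc15, Slc36, Slc38 and Slc43, with pseudogenes left out and at least 50 reads summed over the 9 libraries. Of 96 genes of these families in the count tables, 52 met the rule, out of 46517 genes in all. Of the other family genes, 43 had fewer than 50 reads, 10 of them none, and 1 was a pseudogene. The symbol Slc7a6os also matches the rule but names a gene on the opposite strand to Slc7a6 that encodes no carrier. It counts among the 52 and is left out of the family sums. Slc6a19os, Slc36a3os and Slc36a1os, for which no coding transcript was found, match by symbol too and are among the 43. No measured change between gels entered the rule, although the families were picked with earlier results of these data known.

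Solute carriers move nutrients down a gradient or couple them to sodium, to protons or to an exchanged amino acid. In the small intestine, absorbing enterocytes carry one set in the brush border for entry from the lumen (Slc5a1 for glucose, Slc15a1 for peptides, Slc6a19 for neutral amino acids) and another in the basolateral membrane for exit to the blood (Slc2a2, Slc7a7, Slc7a8). Dividing cells rely more on carriers for their own supply, such as Slc2a1 for glucose, Slc1a5 for glutamine and Slc7a5 for large neutral amino acids. Several Slc7 proteins work only when bound to a heavy chain, Slc3a2 or Slc3a1.

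Mouse intestinal stem cells were dissociated, embedded in 1 of 3 matrices (Matrigel, non-degradable PEG or degradable PEG) and profiled after 4 days, with 3 libraries for each matrix. Matrigel is a basement membrane extract rich in laminin and collagen IV, and PEG gels are synthetic networks of poly(ethylene glycol). All cultures received R-spondin, noggin, EGF, CHIR99021 (a GSK3 inhibitor) and valproic acid, so these agents do not separate the groups. The sources used here do not give the strain, sex or age of the mice or what was built into the PEG gels. Nor do they say if replicate libraries stem from different cultures or animals, so p-values measure only the spread between libraries, which may be technical.

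Libraries held 38016227 to 47211981 reads assigned to genes. All 8 epithelial markers (Epcam, Cdh1, Vil1 and others) passed the filter on low counts and summed to 5238 to 6793 CPM (read counts scaled to a common library size). The 8 stem cell markers also passed it and summed to 3224 to 3407 CPM in Matrigel, 2246 to 2380 in non-degradable PEG and 2626 to 2948 in degradable PEG. Enterocyte markers (14 of 15 passed the filter) summed to 1402 to 1698, 1791 to 1865 and 1051 to 1515 CPM in the same order, so absorptive transcripts were present in every culture. Paneth cell markers (10 of 10) summed to 974 to 1779 CPM in Matrigel, 476 to 685 in non-degradable PEG and 655 to 728 in degradable PEG. Goblet cell markers (7 of 7) summed to 569 to 1035, 188 to 254 and 134 to 197 CPM, and enteroendocrine markers (8 of 9) to 104 to 165, 28.6 to 35.2 and 35.02 to 50.3 CPM. Tuft cell markers summed to at most 10.1 CPM in any library. Markers of mesenchymal, blood, endothelial and neural cells each summed to at most 8.76 CPM, and Col3a1, Dcn, Lum, Ptprc, Cdh5 and Sox10 were at 0 in all libraries. In these bulk libraries fewer cells of a type and less RNA per cell cannot be told apart.

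Among the facilitative sugar carriers 4 of 8 differed from Matrigel, as did some amino acid carriers. Slc2a6 is among those 4 and in the counts of called members against Matrigel below. It passed the filter on low counts only through the PEG libraries, where it is high. Of the 50 tested carriers, 32 were not called in any comparison between gels. The share of all tested genes called in none is not given here. Levels are in CPM, differences between gels are log2 fold changes with their standard errors (SE), and a gene is called when its p, adjusted over all 14870 tested genes, is under 0.05 in edgeR's quasi-likelihood test. Of the 52 members, 50 had enough reads to be tested, and Slc38a3 and Slc6a19 had not. Against Matrigel, 13 of 50 were called in non-degradable PEG, 12 higher and 1 lower (26%), where 16.8% of all tested genes were called, 9.71% higher and 7.13% lower. In degradable PEG, 10 of 50 were called, 5 higher and 5 lower (20%), where 12.2% of all tested genes were called, 7.42% higher and 4.79% lower. Between the PEG gels, 2 of 50 were called, both higher in non-degradable PEG (4%), where 1.28% of all tested genes were called, 0.814% higher and 0.464% lower. The test over all 3 matrices called 16 of 50 members (32%), against 16.3% of all tested genes. The comparisons with Matrigel use the same 3 Matrigel libraries, so they are not independent of each other.

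The counts moved when single libraries were left out. For non-degradable PEG against Matrigel 7 members were called without non-degradable PEG replicate 3. For degradable PEG against Matrigel 4 were called without Matrigel replicate 1, 5 without Matrigel replicate 3 and 6 without degradable PEG replicate 2 or replicate 3. In the first comparison 7 of the 13 calls held in every alternative that tested the gene, namely Slc2a1, Slc2a13, Slc38a1, Slc6a8, Slc7a2, Slc7a7 and Slc7a9. In the second, 4 of the 10 did, namely Slc2a1, Slc2a6, Slc6a4 and Slc7a2. Among the called members, a filter of 10 CPM did not test Slc1a3, Slc2a2, Slc2a6, Slc2a13, Slc7a2 and Slc7a9.

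The median log2 fold change over the tested members was 0.17 for non-degradable PEG against Matrigel, 0.06 for degradable PEG against Matrigel and 0.13 for non-degradable against degradable PEG, beside medians of -0.0021, -0.016 and 0.0033 over all tested genes. The 3 libraries of one gel did not overlap those of the other for 26, 20 and 12 of the 50 members (52%, 40% and 24%), beside 43.4%, 30.4% and 19.0% of all tested genes. Slc2a6 is in the counts against Matrigel and Slc7a15 in that for non-degradable PEG against Matrigel, and both are in the medians. Slc7a15 reached the read minimum only through the non-degradable PEG libraries, where it is high, so neither gene supports anything further. Among the 194 tested solute carriers of the other families, 38 were called in non-degradable PEG against Matrigel (30 higher, 8 lower), 29 in degradable PEG against Matrigel (13 higher, 16 lower) and 6 between the PEG gels, all higher in non-degradable PEG. With the replicate number as a block the first of these counts was 61, and it was 24 without non-degradable PEG replicate 3. The second was 18 without Matrigel replicate 1 or degradable PEG replicate 2 and 19 without Matrigel replicate 3. The last was 0 to 3 when Matrigel replicate 3 or any PEG library except degradable PEG replicate 3 was left out.

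**Figure D1:**
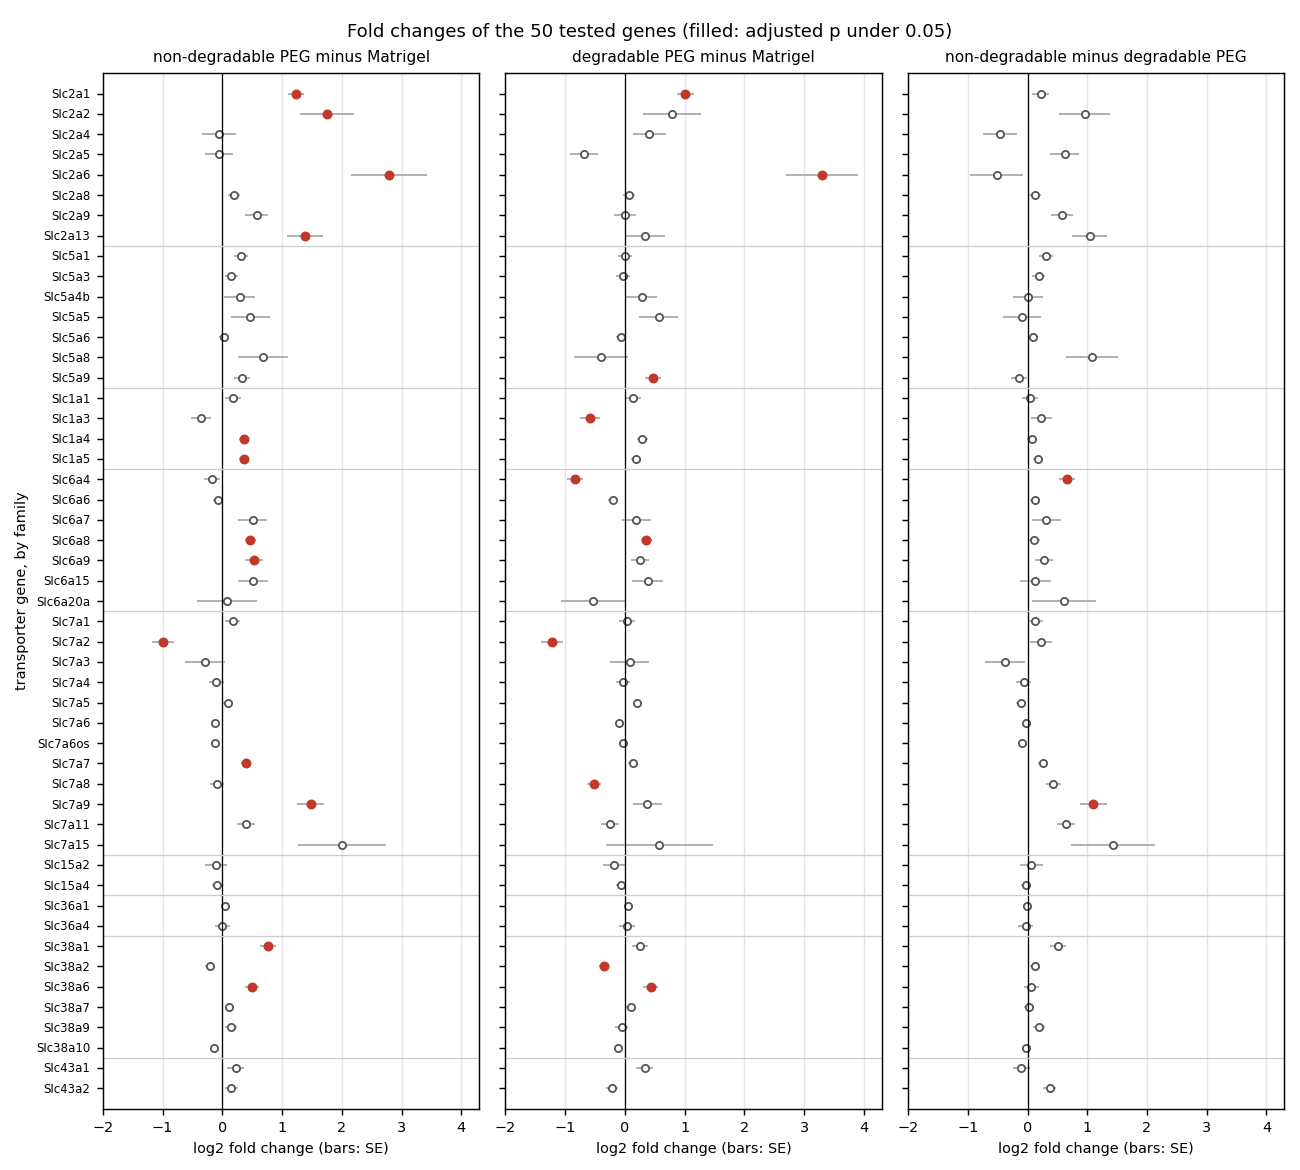
Log2 fold change of the 50 tested genes, ordered by family, for non-degradable PEG minus Matrigel, degradable PEG minus Matrigel and non-degradable minus degradable PEG; bars are SE and filled points have an adjusted p under 0.05. Slc2a1 and Slc2a6 lie to the right of 0 and Slc7a2 to the left in both comparisons with Matrigel, and 2 points are filled between the PEG gels.

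Of the 8 tested facilitative sugar carriers (Slc2), 4 rose in non-degradable PEG against Matrigel and none fell, and 2 rose in degradable PEG and none fell, with Slc2a6 in both counts. Slc2a1 (ENSMUSG00000028645, chr4:119108711-119137983, plus strand), the carrier for basal glucose uptake in most dividing cells, stood at 68.9, 71.7 and 67.5 CPM in Matrigel, 161, 129.8 and 198 in non-degradable PEG and 121, 138 and 161 in degradable PEG. Every PEG library was higher than every Matrigel library, and the PEG gels overlapped each other. Slc2a1 rose by 1.23 (SE 0.14, adjusted p = 0.000291) in non-degradable PEG and by 1.01 (SE 0.14, adjusted p = 0.00107) in degradable PEG. The difference between the PEG gels was 0.22 (SE 0.14, adjusted p = 0.487), which does not pass the test. A gene model on the opposite strand, Gm12868, overlaps Slc2a1, and the strand setting used for counting is not given in the sources used here.

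Slc2a6 (ENSMUSG00000036067, chr2:27021363-27027998, minus strand), a sugar carrier of internal membranes related to Slc2a8, was named after its values were seen because its mean was under 1 CPM. Its read counts were 4, 1 and 2 in Matrigel, 13, 7 and 27 in non-degradable PEG and 14, 29 and 22 in degradable PEG. All PEG libraries were above all Matrigel libraries, from very few reads. Slc2a6 reached the read minimum and passed the filter on low counts only through the PEG libraries, where it is high, so its fold changes are a description and support nothing further. The log2 fold change was 2.78 (SE 0.64, adjusted p = 0.0136) in non-degradable PEG and 3.30 (SE 0.61, adjusted p = 0.00488) in degradable PEG. The first of these calls was lost without Matrigel replicate 2 (0.0554) or without non-degradable PEG replicate 3 (0.0629) (adjusted p in brackets), and the second held in every alternative that tested the gene, which the filter of 10 CPM did not.

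The sequences before the start sites of Slc2a1 and Slc2a6 are shown because these were the Slc2 members called in both PEG gels against Matrigel. Slc6a8 and Slc38a6, which rose, and Slc7a2, which fell, were also called in both, and their sequences are not shown. Slc2a6 was picked by calls that rest on the PEG libraries where it is high, so its matches are a description only. It also counts among the called members with a motif below. The sequences shown come from RefSeq on GRCm38.p6 and run 5′ to 3′ on the strand of the gene. Capitals mark matches to ACGTG or GCGTG on either strand, the core of the site bound by hypoxia-inducible factors, so that CACGC is GCGTG on the other strand. The Slc2a1 stretch, chr4:119108495-119108714 on the plus strand, holds the 220 bases that end 30 bases short of the RefSeq start, and its last 4 bases lie in the first exon of the GENCODE gene model. The Slc2a6 stretch, chr2:27027999-27028248 on the minus strand, is the 250 bases before the start.
Slc2a1: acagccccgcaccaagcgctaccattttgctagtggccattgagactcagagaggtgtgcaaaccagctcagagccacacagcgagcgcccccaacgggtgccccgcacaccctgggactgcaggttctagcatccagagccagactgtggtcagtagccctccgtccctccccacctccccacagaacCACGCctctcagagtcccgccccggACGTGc
Slc2a6: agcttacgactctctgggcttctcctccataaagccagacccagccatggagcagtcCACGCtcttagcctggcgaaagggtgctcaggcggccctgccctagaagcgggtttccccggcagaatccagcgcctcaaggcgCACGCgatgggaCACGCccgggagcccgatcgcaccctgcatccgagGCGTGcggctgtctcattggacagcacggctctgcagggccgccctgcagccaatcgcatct
Slc2a1 has ACGTG beginning 36 bases and GCGTG (other strand) beginning 61 bases before its RefSeq start. Slc2a6 has GCGTG beginning 193, 109 and 97 bases before the start on the other strand and 62 bases before it on its own. Of the 52 members, 39 had a promoter window in the RefSeq table, and 24 of the 39 held ACGTG or GCGTG in the 250 bases before a start. Of the 18 members called in any comparison 13 had a window and 6 of them held either motif, while 41.5% of all genes with a window did. TGATGNAA, the core of the site bound by Atf4 at amino acid response genes, was in 2 members, of which Slc7a7 was called, and in 3.91% of all genes with a window. A match describes letters in this window and not a bound site.

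Slc2a2, the low-affinity carrier that lets glucose leave enterocytes, had 0.41, 0.189 and 0.33 CPM in Matrigel, 1.14, 0.457 and 1.49 in non-degradable PEG and 0.736, 0.371 and 0.491 in degradable PEG. All non-degradable PEG libraries were above all Matrigel libraries, and degradable PEG overlapped both. The log2 fold change in non-degradable PEG was 1.75 (SE 0.45, adjusted p = 0.0233), and the call was lost without Matrigel replicate 2 (0.0859), without Matrigel replicate 3 (0.0586), without non-degradable PEG replicate 1 (0.0639) or without non-degradable PEG replicate 3 (0.106). Slc2a13, a proton-coupled carrier of myo-inositol, had 0.307, 0.189 and 0.22 CPM in Matrigel, 0.66, 0.559 and 0.642 in non-degradable PEG and 0.289, 0.223 and 0.388 in degradable PEG. It was named after its values were seen, for the same reason as Slc2a6. It rose by 1.38 (SE 0.30, adjusted p = 0.0102) in non-degradable PEG, while its difference from Matrigel in degradable PEG was 0.34 (SE 0.33, adjusted p = 0.559).

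The fructose carrier Slc2a5 had 6.15, 5.45 and 5.97 CPM in Matrigel, 5.13, 4.09 and 7.59 in non-degradable PEG and 2.68, 3.69 and 4.55 in degradable PEG. Its libraries in degradable PEG were all below those in Matrigel, at a difference of -0.68 (SE 0.24, adjusted p = 0.0891). That difference missed the threshold and passed it with DESeq2 (0.0385), without a filter on low counts (0.0287) and when non-degradable PEG replicate 3 was left out (0.0443). It also passed with the replicate number as a block. Slc2a9, a urate carrier, was not called in non-degradable PEG against Matrigel at 0.57 (SE 0.19, adjusted p = 0.0569). With the replicate number as a block it was called (adjusted p = 0.0391). Slc2a8 and Slc2a4 were not called in any comparison. The neuronal glucose carrier Slc2a3 lay under the read minimum with 41 reads over all libraries.

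**Figure D2:**
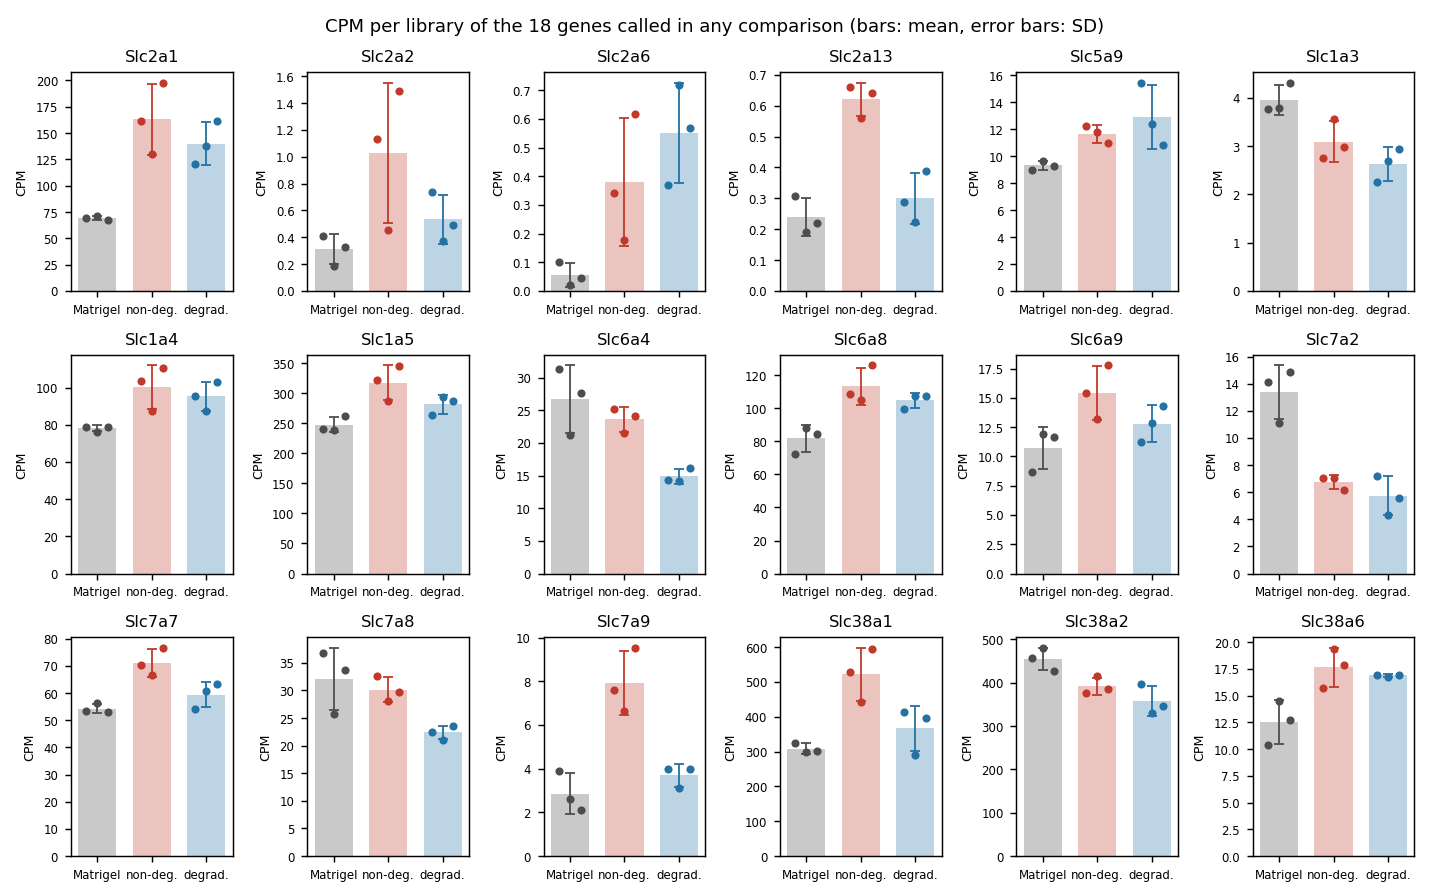
CPM of each library for the 18 genes called in any comparison (points), with the mean (bars, from 0) and SD (error bars) of each matrix. Slc2a1 in Matrigel lies between 67.5 and 71.7 CPM and in the PEG gels between 121 and 198 CPM, and the axes differ between panels.

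Of the 7 tested sodium-coupled carriers (Slc5), none was called in non-degradable PEG against Matrigel, where all 7 differences were positive (median 0.31), and 1 rose in degradable PEG (median 0.0069 over the 7). Slc5a1 (ENSMUSG00000011034, chr5:33104219-33162870, plus strand), the brush border carrier that takes up glucose and galactose with sodium, had 249, 223 and 214 CPM in Matrigel, 267, 245 and 339 in non-degradable PEG and 237, 204 and 248 in degradable PEG. Its libraries in all 3 gels overlapped, with differences of 0.31 (SE 0.12, adjusted p = 0.0939) in non-degradable PEG and 0.01 (SE 0.12, adjusted p = 0.979) in degradable PEG against Matrigel. The first passed the threshold without a filter on low counts (0.0462) and without non-degradable PEG replicate 2 (0.0483).

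Slc5a9, a carrier of mannose and glucose, had 9.01, 9.68 and 9.25 CPM in Matrigel, 12.2, 11.8 and 11 in non-degradable PEG and 15.5, 12.4 and 10.8 in degradable PEG and rose by 0.47 (SE 0.13, adjusted p = 0.0414) in degradable PEG. That call held only without degradable PEG replicate 3 or non-degradable PEG replicate 3 among the fits that leave out 1 library, with an adjusted p of 0.0583 to 0.113 in the other 7, and it was also lost in a fit of the groups compared (0.0782). In non-degradable PEG its difference of 0.32 (SE 0.13, adjusted p = 0.114) passed only in a fit of the groups compared (0.0474). The vitamin carrier Slc5a6, the myo-inositol carrier Slc5a3, the iodide carrier Slc5a5, the monocarboxylate carrier Slc5a8 and Slc5a4b were not called in any comparison. Slc5a3 shares exon sequence with Mrps6 on the same strand, and Slc5a4b has a close copy, Slc5a4a, so their reads are uncertain.

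Among the carriers of glutamate and small neutral amino acids (Slc1), 2 of 4 tested members rose in non-degradable PEG against Matrigel and 1 fell in degradable PEG. Slc1a5 (ENSMUSG00000001918, chr7:16781340-16798274, plus strand), the exchanger that brings glutamine into dividing cells, had 241, 239.6 and 263 CPM in Matrigel, 322, 287 and 345 in non-degradable PEG and 264, 294 and 287 in degradable PEG. All PEG libraries were above all Matrigel libraries, though degradable PEG replicate 1 was barely above the highest of them. The rise was 0.36 (SE 0.08, adjusted p = 0.013) in non-degradable PEG, lost without Matrigel replicate 1 (0.0521) or without non-degradable PEG replicate 3 (0.0609), and in degradable PEG the difference was 0.18 (SE 0.08, adjusted p = 0.173). Slc1a4, an exchanger of alanine, serine and cysteine, had 79.1, 76.2 and 78.9 CPM in Matrigel, 103, 87.5 and 110.3 in non-degradable PEG and 95.6, 87.4 and 103 in degradable PEG, with no overlap between Matrigel and either PEG gel. It rose by 0.36 (SE 0.09, adjusted p = 0.0197) in non-degradable PEG, and the call was lost without Matrigel replicate 1 (0.0549), without Matrigel replicate 2 (0.0627), without Matrigel replicate 3 (0.0528), without non-degradable PEG replicate 1 (0.0675) or without non-degradable PEG replicate 3 (0.0904). In degradable PEG its difference was 0.29 (SE 0.09, adjusted p = 0.0612), which passed the threshold under 7 alternatives, among them DESeq2 (0.0335), and when degradable PEG replicate 2 (0.0389), non-degradable PEG replicate 2 (0.0356) or replicate 3 (0.0494) was left out.

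Slc1a3, a glutamate carrier best known from glia, had 3.76, 3.79 and 4.32 CPM in Matrigel, 2.75, 3.56 and 2.98 in non-degradable PEG and 2.26, 2.7 and 2.95 in degradable PEG and fell by 0.59 (SE 0.17, adjusted p = 0.0448) in degradable PEG. Among the fits that leave out 1 library the call held only without non-degradable PEG replicate 2, and it was also lost with upper-quartile scaling (0.0668), with no filter on low counts (0.0511) and in a fit of the groups compared (0.0714). The marker lists of glia and neurons summed to 4.63 to 7.51 CPM with Matrigel and to 5.27 to 6.64 with degradable PEG, with Sox10 at 0. The epithelial glutamate carrier Slc1a1 was not called, at 0.18 (SE 0.14, adjusted p = 0.402) in non-degradable PEG and 0.13 (SE 0.14, adjusted p = 0.57) in degradable PEG against Matrigel.

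The sodium- and chloride-coupled family (Slc6) changed in both directions. Of 7 tested members 2 rose in non-degradable PEG against Matrigel, while 1 rose and 1 fell in degradable PEG. Slc6a8 (ENSMUSG00000019558, chrX:73673150-73682502, plus strand), the creatine carrier, had 72.5, 88.4 and 84.5 CPM in Matrigel, 109, 105 and 126 in non-degradable PEG and 99.8, 107 and 108 in degradable PEG, with every PEG library above every Matrigel library. It rose by 0.47 (SE 0.09, adjusted p = 0.006) in non-degradable PEG and by 0.36 (SE 0.09, adjusted p = 0.0265) in degradable PEG. The second call was lost without Matrigel replicate 1 (0.0959), without Matrigel replicate 3 (0.0578), without degradable PEG replicate 2 (0.0598) or without degradable PEG replicate 3 (0.0854). Slc6a9, a glycine carrier, had 8.63, 11.9 and 11.6 CPM in Matrigel, 15.4, 13.2 and 17.8 in non-degradable PEG and 11.2, 12.8 and 14.3 in degradable PEG and rose by 0.53 (SE 0.15, adjusted p = 0.0394) in non-degradable PEG. The call was lost without Matrigel replicate 1 (0.126), without Matrigel replicate 2 (0.0527), without Matrigel replicate 3 (0.0592), without non-degradable PEG replicate 1 (0.0899) or without non-degradable PEG replicate 3 (0.163).

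Slc6a4 (ENSMUSG00000020838, chr11:76998603-77032340, plus strand), the serotonin carrier, which enterocytes use to clear serotonin released by enteroendocrine cells, had 31.4, 21.2 and 27.7 CPM in Matrigel, 25.3, 21.5 and 24.1 in non-degradable PEG and 14.3, 14.2 and 16.2 in degradable PEG. The degradable PEG libraries were the lowest, below all others. Slc6a4 fell by 0.84 (SE 0.13, adjusted p = 0.00227) in degradable PEG against Matrigel, and its difference in non-degradable PEG was -0.18 (SE 0.13, adjusted p = 0.386). Between the PEG gels it was higher in non-degradable PEG by 0.67 (SE 0.14, adjusted p = 0.0412), a call that held without Matrigel replicate 1 or replicate 2 and was lost without any other library (0.0589 to 0.181) and with a filter of 10 CPM (0.0568). Of the enterocyte markers, 5 of 14 fell in degradable PEG against Matrigel (Sis, Fabp1, Fabp2, Anpep and Enpep) and none rose, 8 without degradable PEG replicate 1. Of the enteroendocrine markers 5 of 8 fell. The part of either in the Slc6a4 result was not tested.

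Slc6a6, the taurine carrier and one of the most abundant members, had 460.1, 443 and 451 CPM in Matrigel, 433, 415 and 442 in non-degradable PEG and 426, 339.8 and 413 in degradable PEG and was not called in any comparison. The brush border carriers of this family were near the limit of detection. Slc6a19, the main brush border carrier of neutral amino acids, had counts of 9, 8 and 8 in Matrigel, 10, 8 and 11 in non-degradable PEG and 4, 3 and 0 in degradable PEG, and Slc6a20a, the carrier of proline and other imino acids, had 25, 11 and 9 in Matrigel, 13, 21 and 10 in non-degradable PEG and 5, 10 and 13 in degradable PEG. Slc6a20a overlaps Ccr9 on the opposite strand and has a close copy, Slc6a20b. Slc6a14, a broad amino acid carrier, had 8 reads over all libraries and fell short of the rule.

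The cationic amino acid carriers (Slc7a1 to Slc7a4) held the largest fall among the called members, that of Slc7a2. Slc7a2 (ENSMUSG00000031596, chr8:40862396-40922308, plus strand), which takes up arginine, lysine and ornithine, had 14.1, 11.1 and 14.9 CPM in Matrigel, 7.03, 7.04 and 6.14 in non-degradable PEG and 7.23, 4.35 and 5.61 in degradable PEG. Every PEG library was below every Matrigel library, and the PEG gels overlapped each other. Slc7a2 fell by 0.99 (SE 0.18, adjusted p = 0.00405) in non-degradable PEG and by 1.22 (SE 0.18, adjusted p = 0.0015) in degradable PEG, in every alternative except the filter of 10 CPM, which did not test it. Paneth cell markers moved alongside it. Of 10 tested, 7 fell and 1 rose in non-degradable PEG, and 7 fell and 2 rose in degradable PEG, and their part in the Slc7a2 result was not tested. Slc7a1, the more widely expressed carrier of arginine, had 173, 158 and 156 CPM in Matrigel, 194, 169.6 and 184 in non-degradable PEG and 199.9, 129 and 172 in degradable PEG and was not called in any comparison. Slc7a3 and Slc7a4 were not called either.

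The light chains of the heteromeric exchangers are the other branch of Slc7. Of 7 tested, 2 rose in non-degradable PEG against Matrigel, 1 fell in degradable PEG and 1 was higher in non-degradable than in degradable PEG. Slc7a9 (ENSMUSG00000030492, chr7:35448796-35466036, plus strand), which takes up cystine and dibasic amino acids at the brush border, had 3.89, 2.59 and 2.09 CPM in Matrigel, 7.61, 6.63 and 9.54 in non-degradable PEG and 4, 3.09 and 4.01 in degradable PEG. All 3 non-degradable PEG libraries were above the other 6. Slc7a9 rose by 1.48 (SE 0.23, adjusted p = 0.00172) against Matrigel, a call kept in every alternative that tested it (all but the filter of 10 CPM), and was higher than in degradable PEG by 1.10 (SE 0.23, adjusted p = 0.0453). The second call held without Matrigel replicate 1 or replicate 3 and was lost without any other library (0.0585 to 0.203).

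Slc3a1, the heavy chain that Slc7a9 needs to reach the membrane, had 11.6, 7.43 and 6.19 CPM in Matrigel, 14.7, 11 and 16.4 in non-degradable PEG and 5.97, 6.51 and 5.82 in degradable PEG. It was higher in non-degradable than in degradable PEG by 1.20 (SE 0.22, adjusted p = 0.0298) and higher than in Matrigel by 0.74 (SE 0.22, adjusted p = 0.0376). The first call was lost without non-degradable PEG replicate 1 (0.114) or replicate 3 (0.0675) and without each degradable PEG library (0.0629, 0.119 and 0.0709). The second was lost without Matrigel replicate 2 (0.118) or replicate 3 (0.112) and without non-degradable PEG replicate 1 (0.0992) or replicate 3 (0.144), and narrowly in a fit of the groups compared (0.05003). Enterocyte markers differed in the same comparisons. Of 14 tested, 4 were higher and 2 lower in non-degradable PEG than in Matrigel, 7 were higher in non-degradable than in degradable PEG and none lower, and their part in the Slc7a9 and Slc3a1 results was not tested. The count between the PEG gels fell to 1 without non-degradable PEG replicate 1 or degradable PEG replicate 2.

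Slc7a7, the light chain that exports arginine and lysine across the basolateral membrane, had 53.4, 56.3 and 53.2 CPM in Matrigel, 70.2, 66.6 and 76.7 in non-degradable PEG and 54.1, 60.9 and 63.3 in degradable PEG. The non-degradable PEG libraries were the 3 highest, and Slc7a7 rose by 0.39 (SE 0.08, adjusted p = 0.00706). Its difference in degradable PEG was 0.13 (SE 0.08, adjusted p = 0.32). Oxa1l overlaps Slc7a7 on the opposite strand. Slc7a8, a basolateral exchanger of neutral amino acids, had 36.7, 25.8 and 33.8 CPM in Matrigel, 32.7, 28.1 and 29.7 in non-degradable PEG and 22.4, 21.1 and 23.6 in degradable PEG. All degradable PEG libraries were below all Matrigel libraries. Slc7a8 fell by 0.52 (SE 0.12, adjusted p = 0.0178) in degradable PEG, and the call was lost without Matrigel replicate 1 (0.0705), without Matrigel replicate 3 (0.0647) or without degradable PEG replicate 2 (0.0615).

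Slc7a11, which exchanges cystine for glutamate and feeds glutathione synthesis, had 64.6, 57.5 and 54.5 CPM in Matrigel, 80.8, 78.6 and 71.9 in non-degradable PEG and 60, 36.1 and 52.2 in degradable PEG. The non-degradable PEG libraries were the 3 highest. Its differences were 0.39 (SE 0.15, adjusted p = 0.0931) for non-degradable PEG against Matrigel, -0.25 (SE 0.15, adjusted p = 0.309) for degradable PEG against Matrigel and 0.64 (SE 0.15, adjusted p = 0.0716) between the PEG gels. With the replicate number as a block the adjusted p was 0.0428 for the first of these, and the last passed too. Without degradable PEG replicate 1 (0.0477) or replicate 2 (0.0129), with no filter on low counts (0.0271) and in a fit of the groups compared (0.00989) the first difference also passed, as did the last with DESeq2 (0.00347), with no filter on low counts (0.000734) and without degradable PEG replicate 1 (0.0351). The test over all 3 matrices called it (adjusted p = 0.0307). Slc7a5, the carrier of leucine and other large neutral amino acids, had 163, 165 and 182 CPM in Matrigel, 193, 166 and 186 in non-degradable PEG and 192, 193 and 204 in degradable PEG and was not called in any comparison, nor was Slc7a6. Their heavy chain Slc3a2 had 140.4, 139.6 and 145 CPM in Matrigel, 157, 141 and 158 in non-degradable PEG and 144, 165 and 154 in degradable PEG and was not called. Slc7a15 had counts of 1, 5 and 3 in Matrigel, 10, 10 and 14 in non-degradable PEG and 2, 0 and 10 in degradable PEG and was not called. It reached the read minimum only through the non-degradable PEG libraries, where it is high, so its values are a description.

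Among the sodium-coupled neutral carriers (Slc38), 2 of 6 tested members rose in non-degradable PEG against Matrigel, while 1 rose and 1 fell in degradable PEG. Slc38a1 (ENSMUSG00000023169, chr15:96571418-96642913, minus strand), a carrier of glutamine and other small neutral amino acids, had 326, 297 and 301 CPM in Matrigel, 529, 443 and 595 in non-degradable PEG and 413, 291 and 396 in degradable PEG. The non-degradable PEG libraries were the 3 highest of all. Slc38a1 rose by 0.76 (SE 0.13, adjusted p = 0.00333) in non-degradable PEG, and its difference in degradable PEG was 0.25 (SE 0.13, adjusted p = 0.256), which passed the threshold without degradable PEG replicate 2 (0.0475). Between the PEG gels the difference was 0.51 (SE 0.13, adjusted p = 0.105), which passed it with DESeq2 (0.0133) and with no filter on low counts (0.00368). It also passed with the replicate number as a block.

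Slc38a2, the neighbouring gene on chromosome 15, encodes a related carrier known to be induced when amino acids are scarce. It had 457, 479.6 and 428 CPM in Matrigel, 376, 415 and 385 in non-degradable PEG and 398, 329 and 347 in degradable PEG, with every PEG library below every Matrigel library. Slc38a2 fell by 0.35 (SE 0.08, adjusted p = 0.0204) in degradable PEG, and the call was lost without Matrigel replicate 1 (0.0628), without Matrigel replicate 2 (0.0911), without degradable PEG replicate 2 (0.0552) or without degradable PEG replicate 3 (0.0729). Its difference in non-degradable PEG was -0.22 (SE 0.08, adjusted p = 0.097), which passed the threshold in a fit of the groups compared (0.0414) and without degradable PEG replicate 1 (0.0487). Slc38a6, a little studied member of the family, had 10.3, 14.5 and 12.7 CPM in Matrigel, 15.7, 19.4 and 17.9 in non-degradable PEG and 16.9, 16.8 and 17 in degradable PEG, with no overlap between Matrigel and either PEG gel. It rose by 0.50 (SE 0.13, adjusted p = 0.021) in non-degradable PEG, a call lost without Matrigel replicate 1 (0.0683), without Matrigel replicate 3 (0.0527), without non-degradable PEG replicate 2 (0.0689) or without non-degradable PEG replicate 3 (0.0696). In degradable PEG the rise was 0.43 (SE 0.13, adjusted p = 0.0462), a call that held only without Matrigel replicate 2 among the fits that leave out 1 library and was also lost in a fit of the groups compared (0.0721). Slc38a7, Slc38a9 (a lysosomal arginine sensor of the mTORC1 pathway) and Slc38a10 were not called, and Slc38a3 was not tested.

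None of the 4 tested members of the proton-coupled families Slc15 and Slc36 was called in any comparison. Of the peptide carriers (Slc15), Slc15a2 and Slc15a4 were tested and neither was called, with median differences from Matrigel of -0.10 in the non-degradable gel and -0.12 in the degradable gel. Slc15a1, the peptide carrier of the brush border, fell short of the rule with 32 reads, 6 with Matrigel, 23 with non-degradable and 3 with degradable PEG (3 libraries each), and every non-degradable PEG library was above the other 6 in CPM. Slc36a1, a proton-coupled carrier of small amino acids in lysosomes and the brush border, had 50.9, 54.4 and 53.7 CPM in Matrigel, 52.2, 56.5 and 54.7 in non-degradable PEG and 56.8, 55.7 and 52.2 in degradable PEG, and its differences from Matrigel were 0.04 (SE 0.07, adjusted p = 0.727) in non-degradable PEG and 0.05 (SE 0.07, adjusted p = 0.671) in degradable PEG. Slc36a4 was not called either. Of the carriers of large neutral amino acids without an ion gradient (Slc43), Slc43a1 and Slc43a2 were tested and not called. Slc43a2, a basolateral exit carrier, differed between the PEG gels by 0.37 (SE 0.11, adjusted p = 0.139), which passed the threshold with DESeq2 (0.0406).

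The same genes can be read by the place where they act. Of 6 tested carriers of brush border entry (Slc5a1, Slc2a5, Slc6a20a, Slc7a9, Slc1a1 and Slc36a1), 1 was called in non-degradable PEG against Matrigel, none in degradable PEG and 1 between the PEG gels, Slc7a9 each time it was called. At an unadjusted p under 0.05 over all 50 tested members the counts were 20, 16 and 13, where 32.6%, 27.3% and 14.8% of all tested genes passed. Slc2a6 and Slc7a15, both high only where they reached the read minimum, are in the first of these counts, and Slc2a6 is in the second. Of 4 basolateral exit carriers (Slc2a2, Slc7a7, Slc7a8 and Slc43a2), 2 rose in non-degradable PEG against Matrigel and 1 fell in degradable PEG, and all 4 had positive differences between the PEG gels (median 0.40) with none called. Of 9 tested carriers that supply dividing cells (Slc2a1, Slc1a4, Slc1a5, Slc7a1, Slc7a5, Slc7a6, Slc7a11, Slc38a1 and Slc38a2), 4 rose in non-degradable PEG, with a median of 0.36 over the list, and 1 rose and 1 fell in degradable PEG, with a median of 0.18.

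Levels of different genes were compared as CPM per kilobase of summed exon length (RPKM). The 5 highest means over the 9 libraries were 67.7 RPKM for Slc1a5, 60.3 for Slc5a1, 50.2 for Slc6a6, 49.2 for Slc7a5 and 45.4 for Slc38a2. In Matrigel, Slc1a5 had 59.4 ± 3.13 (SD, n = 3), Slc5a1 55.7 ± 4.37, Slc6a6 53.3 ± 1.03, Slc38a2 51.5 ± 2.94 and Slc7a5 45.9 ± 2.86 RPKM, so neighbours in this order differed by less than the sum of their SDs. By the mean over the 9 libraries Slc2a1 came next at 35.4 RPKM, with 19.8 ± 0.607 RPKM in Matrigel, under Slc38a10, Slc7a6 and Slc1a4 there, beside 46.5 ± 9.72 and 39.9 ± 5.79 RPKM in the non-degradable and degradable PEG gels. With the length of the longest coding transcript in place of all exons, a choice made after seeing the data, 4 of the 5 stayed among the top 5 and Slc38a1 replaced Slc7a5. At the other end, Slc38a3, Slc6a19, Slc2a13 and Slc7a15 had means of 0.028 to 0.050 RPKM.

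**Figure D3:**
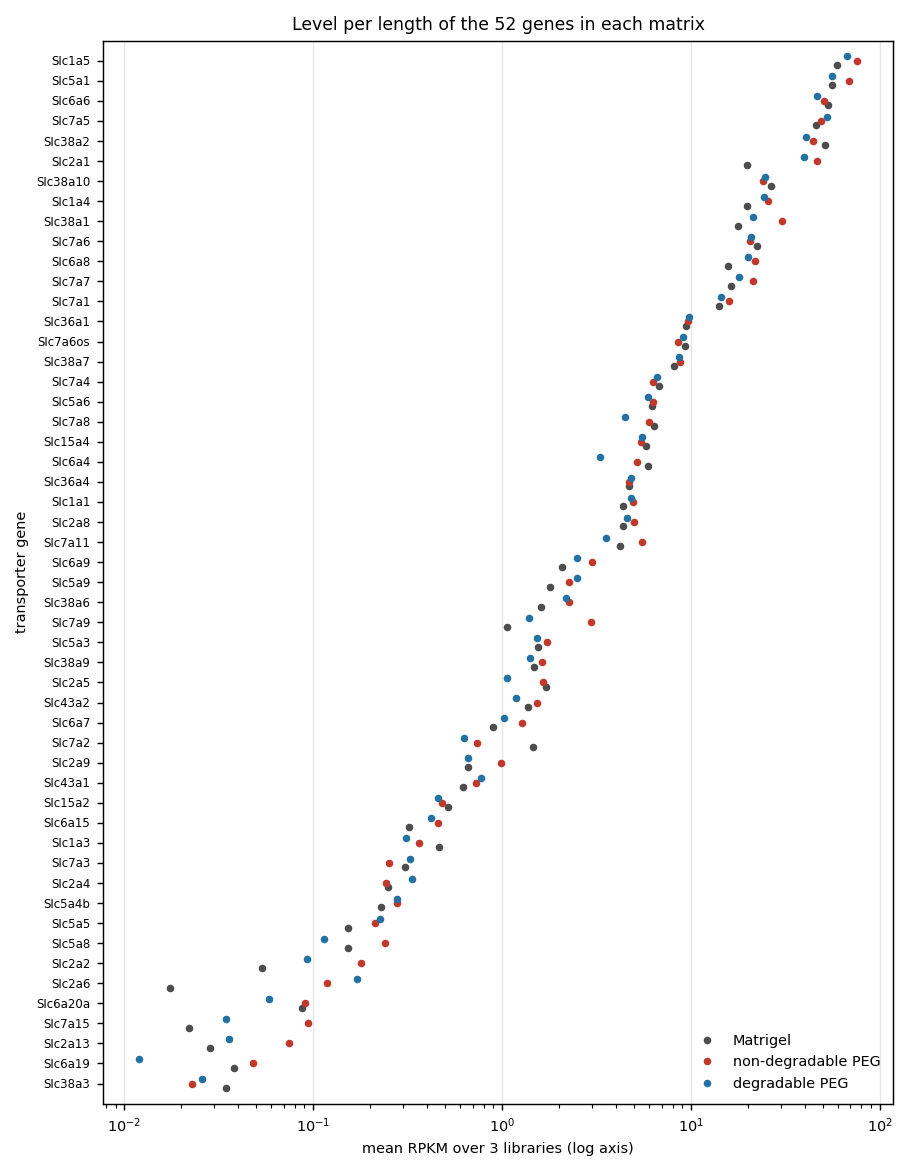
Mean RPKM over 3 libraries of the 52 genes in each matrix, on a log axis, ordered by the mean over the 9 libraries. The points run from Slc6a19 at 0.012 RPKM in degradable PEG to Slc1a5 at 76.1 RPKM in non-degradable PEG.

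All members together took 0.311% to 0.316% of reads in Matrigel, 0.336% to 0.382% in non-degradable PEG and 0.293% to 0.328% in degradable PEG. Summed per length, the Slc2 family stood at 26.9 ± 0.47 RPKM (SD, n = 3) in Matrigel, beside 54.7 ± 10.8 and 46.8 ± 6.30 RPKM in the non-degradable and degradable PEG gels, most of it Slc2a1. The Slc1 family stood at 84.1 ± 3.96, 107 ± 9.76 and 96.8 ± 4.46 RPKM, with every PEG library above every Matrigel library. Slc7 was the largest family, at 119 ± 2.77, 129 ± 6.46 and 123 ± 5.29 RPKM, followed by Slc38 at 107 ± 2.92, 112 ± 3.73 and 98.7 ± 5.94 RPKM. Within Slc38 the mean of Slc38a1 was higher and that of Slc38a2 lower in each PEG gel than in Matrigel. The Slc15 sum was 6.32 ± 0.49, 5.94 ± 0.40 and 5.99 ± 0.36 RPKM, and the Slc36 sum 14.1 ± 0.98, 14.4 ± 0.90 and 14.6 ± 0.53 RPKM.

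**Figure D4:**
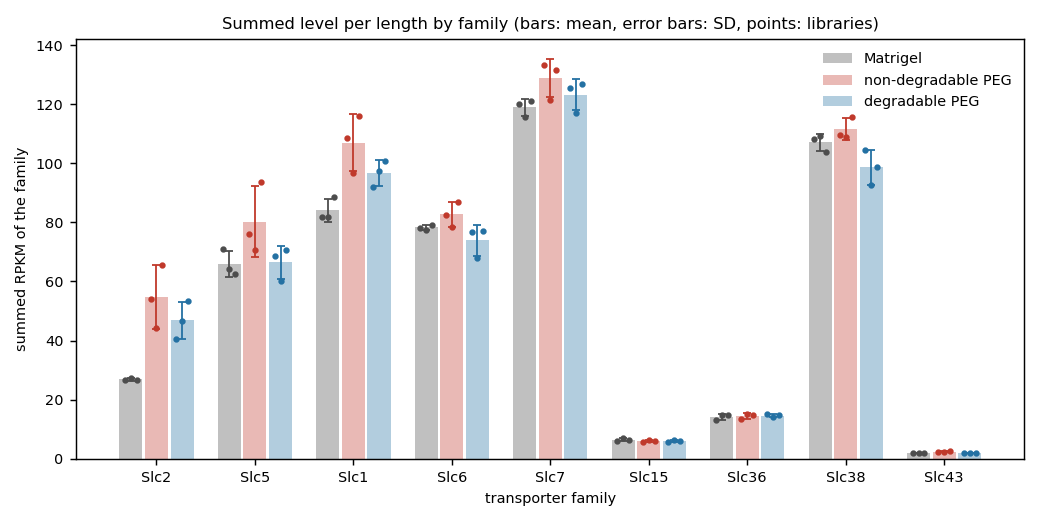
Summed RPKM of each family in the 3 matrices (bars: mean from 0, error bars: SD, points: the 3 libraries), without Slc7a6os. The Slc2 libraries of the PEG gels lie between 40.6 and 65.7 RPKM, above the Matrigel libraries at 26.5 to 27.4 RPKM.

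Genes that act on these carriers were looked up from a list of partners and regulators. Txnip, which drives Slc2a1 from the cell surface and is induced by glucose, had 255, 394 and 349.8 CPM in Matrigel, 853, 1015 and 1255 in non-degradable PEG and 826, 935 and 1002 in degradable PEG. It rose by 1.65 (SE 0.17, adjusted p = 0.000178) in non-degradable PEG and 1.47 (SE 0.17, adjusted p = 0.000332) in degradable PEG, with every PEG library above every Matrigel library, as for Slc2a1. Its relative Arrdc4 was not called, at 0.53 (SE 0.18, adjusted p = 0.0654) and 0.58 (SE 0.18, adjusted p = 0.0576). The first passed the threshold in 4 of 16 alternatives and the second in 8 of 16, with DESeq2 (0.0221 and 0.0121) and with no filter on low counts (0.00651 and 0.00297) in both. With the replicate number as a block its first adjusted p was 0.0197. Of the 8 tested genes reported from this list, 3 rose (Txnip, Slc3a1 and Sgk1) and 1 fell (Pdzk1) in non-degradable PEG against Matrigel, 1 rose (Txnip) and 1 fell (Pdzk1) in degradable PEG, and 1 (Slc3a1) was higher in non-degradable than in degradable PEG. The first count was 2 in all when either Matrigel replicate 2 or replicate 1 of non-degradable PEG was left out, and 1 without non-degradable PEG replicate 3. The second was 4 without non-degradable PEG replicate 3 or with DESeq2, and 1 without Matrigel replicate 3 or degradable PEG replicate 3. The last was 0 when replicate 1 or 3 of non-degradable PEG or any single degradable PEG library was left out. Sgk1, a kinase that raises the surface level of several carriers, was at 0.90 (SE 0.24, adjusted p = 0.0284) in non-degradable PEG, lost without Matrigel replicate 1 (0.0951) or replicate 2 (0.0688) or without non-degradable PEG replicate 3 (0.121). In degradable PEG its difference was 0.80 (SE 0.24, adjusted p = 0.0547), which passed the threshold in 6 of 15 alternatives. Pdzk1, a scaffold protein that binds carriers at the brush border, was at -1.56 (SE 0.37, adjusted p = 0.016) and -1.38 (SE 0.36, adjusted p = 0.0307). Its first call was lost without Matrigel replicate 2 (0.0627) or without non-degradable PEG replicate 1 (0.0612) or replicate 3 (0.0562). Its second was lost without Matrigel replicate 2 (0.112) or replicate 3 (0.0874) or without degradable PEG replicate 1 (0.0671) or replicate 3 (0.108).

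Genes of glycolysis and of the hypoxia response, the pathway known to raise Slc2a1 in many tissues, were higher in both PEG gels than in Matrigel. Of 24 tested, 23 rose in non-degradable PEG with a median of 1.53, and 20 rose in degradable PEG with a median of 1.10. Ankrd37, a hypoxia-induced gene, rose by 3.79 (SE 0.21, adjusted p = 3.49e-06) in non-degradable PEG and by 3.202 (SE 0.21, adjusted p = 1.71e-05) in degradable PEG. Pfkfb3, whose product drives glycolysis, rose by 2.14 (SE 0.18, adjusted p = 6.13e-05) and 1.84 (SE 0.18, adjusted p = 0.000142). Between the PEG gels 1 gene of the list was called, Gapdh, higher in non-degradable PEG by 0.89 (SE 0.15, adjusted p = 0.0229). That count was 0 without degradable PEG replicate 2 or non-degradable PEG replicate 1, 2 without Matrigel replicate 1 and 6 without degradable PEG replicate 3. Gapdh had a mean of only 15.6 CPM over the 9 libraries, beside 1420 for Aldoa and 1438 for Ldha. It overlaps Iffo1 on the opposite strand, so its reads are uncertain. The part of this pathway in the Slc2a1 result was not tested.

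Genes of the Atf4 response to amino acid shortage, to which Slc7a11 and Slc38a2 are known to respond, changed in part. Of 20 tested, 6 rose and 1 fell in non-degradable PEG, and 7 rose and 2 fell in degradable PEG. Stc2 rose by 1.99 (SE 0.10, adjusted p = 2.89e-06) in non-degradable PEG and by 1.38 (SE 0.10, adjusted p = 4.06e-05) in degradable PEG, and Chac1 by 1.77 (SE 0.26, adjusted p = 0.00117) and 1.82 (SE 0.26, adjusted p = 0.00118). The medians over the list were 0.15 and 0.16. Cth, an enzyme of cysteine synthesis, fell by 0.50 (SE 0.08, adjusted p = 0.00205) and fell by 0.75 (SE 0.08, adjusted p = 0.000243), and in degradable PEG Aldh1l2, named after its values were seen, fell by 0.93 (SE 0.21, adjusted p = 0.0153). Of 24 tested genes of amino acid sensing by mTORC1, Rragd rose in non-degradable PEG at 0.37 (SE 0.10, adjusted p = 0.0284) and none was called in the other comparisons. That count was 0 without Matrigel replicate 1 or replicate 2 and without non-degradable PEG replicate 2 or replicate 3. It also moved with DESeq2, with no filter on low counts and with the replicate block, within a range of 0 to 2.

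Just inside the read minimum were Slc7a15 with 55 reads, Slc38a3 with 56 and Slc6a19 with 61, and just outside it Slc2a3 with 41, Slc1a6 with 33 and Slc15a1 with 32. In all, 13 tested members share exon sequence with a gene on the opposite strand, among them Slc2a1, Slc6a6, Slc6a9, Slc7a2 and Slc7a7, and their values hold only as far as strand was used in counting.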

How the data were processed

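RNA-seq counts of 9 libraries were analysed, 3 per matrix. The deposited values were read counts per gene, and, per the submitters' processing notes, the authors used cutadapt 1.3 for trimming, STAR 2.4.2a for alignment to GRCm38 and HTSeq 0.6.1 for counting. Per the labels' protocols the libraries were stranded, but the strand setting of the counting is not given in the sources used here. The 5 tally rows without a gene were removed, and featureless reads made up 7.29% to 11.2% of each library (reads of several alignments not counted). Symbols, exon lengths and coordinates came from GENCODE release M21 (46005 of 46517 genes matched).

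All 9 libraries were fitted in edgeR 4.0.16 (R 4.3.3; quasi-likelihood test, TMM scaling, filterByExpr, 1 mean per matrix), with Benjamini-Hochberg adjustment over 14870 genes and a threshold of 0.05. Each SE was obtained by dividing the absolute log2 fold change by the root of F. CPM used TMM-scaled library sizes, and RPKM divided them by the summed exon length. Members and lists were chosen with earlier results of these data known. Genes named were a panel of family members, up to 8 called members per direction and comparison with a mean of at least 1 CPM, the 5 of highest RPKM, and partners and at most 3 genes per other list. A gene of the partner list is not reported here. Alternatives were DESeq2 1.42.0, 2 other scalings, 2 other filters, a fit of the groups compared, a replicate block and leaving out each library. Tested on simulated data (non-degradable PEG against Matrigel, 14870 genes), the fit recovered 84 of 100 genes changed 2-fold and 99 of 100 changed 4-fold, with 3 false calls. Changes under 2-fold, to which most called members belong, were not simulated.

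Same-numbered libraries of non-degradable PEG and Matrigel deviated together from their group means (correlations 0.331, 0.176 and 0.186), so these numbers were taken to pair the libraries, a hint from the data that the labels do not state. The fit without the block stayed the reported one.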

Additional observations from a re-analysis of the deposited data

How the results depend on the processing

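Of the 13 members called in non-degradable PEG against Matrigel, 8 were called with a filter of 10 CPM, which tests fewer genes. The rest, Slc2a2, Slc2a6, Slc2a13, Slc7a2 and Slc7a9, were not tested with that filter. When 1 library was left out, 7 to 16 members were called. Of the 10 called in degradable PEG, the counts were 4 to 10 when 1 library was left out. Between the PEG gels, where 2 were called, the count was 6 with DESeq2, 5 with no filter on low counts, 0 with a filter of 10 CPM and 0 to 2 when 1 library was left out. The test over all 3 matrices called 10 with a filter of 10 CPM and 7 to 16 when 1 library was left out. The other scalings, edgeR with DESeq2 size factors and upper-quartile scaling, gave 13 and 14, 10 and 10, and 2 and 2 calls in the 3 comparisons. The cause of these shifts was not tested, beyond the smaller number of samples or genes.

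With the replicate number as a block, 15 members were called in non-degradable PEG against Matrigel. Among members and the named partner genes the block changed no other call there than those of Slc2a9, Slc7a11 and Arrdc4 given above. For the other pairs of gels the numbers were not taken to pair the libraries, though the data leave a pairing possible. Degradable PEG with Matrigel showed the same pattern as non-degradable PEG with Matrigel, every same-numbered correlation being above every differently numbered one. Correlations of same-numbered libraries were 0.258, 0.071 and 0.226 for degradable PEG with Matrigel, where differently numbered ones ran from -0.238 to 0.039. For the PEG gels they were 0.288, 0.020 and 0.511, beside -0.454 to 0.257 for differently numbered ones. By mean correlation, all 9 libraries were closest to those of their own number in the other gels. With the block these pairs of gels gave 12 and 5 calls, and the test over all 3 matrices gave 21. Among them, and not called in the reported fit, were Slc1a4 and Slc2a5 in degradable PEG against Matrigel. Between the PEG gels Slc7a8, Slc7a11 and Slc38a1 were likewise called only with the block and not in the reported fit.

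Among list counts, with a filter of 10 CPM enterocyte markers fell from 6 calls to 3 and Atf4 response genes from 7 to 4 in non-degradable PEG against Matrigel, and the other solute carriers from 29 to 18 in degradable PEG. Between the PEG gels, the glycolysis and hypoxia list had 5 calls with DESeq2, 9 with no filter and 8 with the block, against 1, and the other solute carriers 15, 17 and 23, against 6. With the block the other solute carriers had 47 calls in degradable PEG against Matrigel.

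Differences near 0 changed sign. Slc5a1 in degradable PEG against Matrigel was -0.0053 with no filter and -0.0013 with the replicate block. When 1 library was left out, the log2 fold changes in non-degradable PEG against Matrigel ran for Slc2a5 from -0.35 to 0.12, Slc6a20a from -0.29 to 0.76 and Slc7a8 from -0.22 to 0.014. In degradable PEG against Matrigel they ran for Slc1a1 from -0.0093 to 0.26, Slc5a1 from -0.054 to 0.088, Slc6a20a from -0.86 to 0.15 and Slc7a1 from -0.11 to 0.20. In non-degradable against degradable PEG they ran for Slc1a1 from -0.034 to 0.16, Slc36a1 from -0.046 to 0.013, Slc38a6 from -0.0037 to 0.14, Slc5a9 from -0.26 to 0.0014, Slc7a1 from -0.031 to 0.28, Slc3a2 from -0.078 to 0.026, Arrdc4 from -0.28 to 0.059, Pdzk1 from -0.38 to 0.30 and Sgk1 from -0.12 to 0.32. None of these differences was called in the reported fit. The depth of 38016227 to 47211981 reads left Slc2a6 with 1 to 4 reads per Matrigel library and Slc6a19 with 0 to 4 per degradable PEG library, so their differences are poorly resolved.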
